A study of Drosophila melanogaster with 2 samples.

Results

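Jra, the fly Jun protein, was bound at or beside 7 of 9 genes that serve Drosophila glia. The genes are drpr, repo, moody, loco, Gli, Mdr65, nrv2, Eaat1 and Gs2, 9 of the 13945 protein-coding genes on the chromosome arms. A region was assigned to a gene when its summit lay in the gene body or within 5 kb of either end. By that rule the genes held 15 of the 3803 nuclear peaks in the authors' list cut by irreproducible discovery rate (IDR). By the same rule 41.4% of all coding genes had an IDR peak, and 50.4% of those within the length range of the 9. The strongest peaks of the 9 lay in loco and just upstream of moody, both genes of the blood-brain barrier. At drpr, the engulfment receptor gene, a weaker peak lay beside the transcription start site (TSS). At repo and nrv2 the peaks lay past the end of the gene and nearer to the start of a neighbour, and at Eaat1 and Mdr65 there was none.

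The chromatin came from wandering larvae of the third instar with a Jra transgene that ended in a C-terminal GFP tag, and it was precipitated with an antibody against GFP. There was 1 group, of 2 biological replicates numbered 1 and 3, males and females pooled, of unknown age. Whole animals were used and sonicated, so each region averages over all larval tissues, and binding in glia cannot be told apart from binding in other cells. Whether the animals kept their own Jra is not given in the sources used here, and control libraries were not analysed here.

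Glia of the fly wrap neurons, take up transmitter, seal the nervous system from the blood and remove dead cells. Draper, the product of drpr, is the receptor through which glia recognise and engulf degenerating axons. Jun pairs with the Fos protein kay to form AP-1, which acts downstream of the kinase JNK and reads the sequence TGACTCA or TGAGTCA. In adult flies, glial expression of drpr after nerve injury has been tied to JNK with AP-1 and to the factor Stat92E. The barrier is built by subperineurial glia, whose septate junctions are regulated by the receptor Moody and its partner Loco.

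The following sequences carry the findings on drpr, loco and Eaat1. All are read 5′ to 3′ on the plus strand of dm6 from the RefSeq Release 6 genome, with sites found by search in capitals. The first is the 101 bp centred on the drpr peak summit (chr3L:1730930-1731030), in which none of the 6 searched motifs was found. The next is 218 bp of the long drpr intron (chr3L:1727489-1727706), shown for its pair of exact AP-1 sites, which start 187 bp apart. The AP-1 sites of Eaat1 (chr2L:9339300-9339330), Gs2 (chrX:11431175-11431205) and loco (chr3R:22633016-22633046) are the 3 that lay within 50 bp of any summit of the pooled list at these genes. The loco peak of highest signal (chr3R:22627110-22627210) held no searched motif. The loco start site summit (chr3R:22639341-22639441) held the DNA replication-related element (DRE), TATCGATA.
drpr peak: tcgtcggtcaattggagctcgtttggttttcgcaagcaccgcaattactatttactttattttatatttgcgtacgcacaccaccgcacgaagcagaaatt
drpr intron: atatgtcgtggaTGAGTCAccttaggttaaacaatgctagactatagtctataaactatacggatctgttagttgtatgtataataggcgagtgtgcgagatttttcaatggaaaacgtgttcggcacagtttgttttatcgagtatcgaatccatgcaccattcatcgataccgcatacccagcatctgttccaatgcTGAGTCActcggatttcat
Eaat1 AP-1 site: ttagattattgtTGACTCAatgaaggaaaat
Gs2 AP-1 site: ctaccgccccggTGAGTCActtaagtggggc
loco AP-1 site: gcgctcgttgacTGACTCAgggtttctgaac
loco strongest peak: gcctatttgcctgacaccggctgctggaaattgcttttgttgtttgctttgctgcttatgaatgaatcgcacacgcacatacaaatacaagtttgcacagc
loco start site: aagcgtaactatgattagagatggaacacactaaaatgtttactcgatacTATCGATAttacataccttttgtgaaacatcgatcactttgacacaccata

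The authors' lists give each region a signal, their own value, whose scale differs from list to list, so ranks are given beside it. The nuclear lists held 3803 IDR peaks, 29970 regions in the pooled list, 30000 in that of replicate 1 and 29971 in that of replicate 3. Background regions are included in all but the first. The IDR peaks were the top of the pooled list by signal, from 70.6 to 1184, and their signals below come from that list. No region carries a read count, so read depth is unknown, and with 2 replicates on separate scales both values are given without an SD. The 15 peaks are not 15 independent events, because the 2 at nrv2 overlap each other and most of those at loco lie around the same internal TSS.

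At drpr (FBgn0027594, chr3L:1715595-1731107, minus strand) the IDR peak lay at chr3L:1730760-1731199. Its summit was 127 bp downstream of the only annotated TSS, in a non-coding exon. The signal was 78.3 in the pooled list, which placed it 3163 of 3803. It was 45.4 in replicate 1 (rank 3269) and 34.8 in replicate 3 (rank 4023). Each replicate list was cut at its 3827 highest regions, the size of the IDR list before it was limited to the chromosome arms. The drpr peak stood among those of replicate 1, whose lowest signal was 40.9. It was just outside those of replicate 3, whose lowest was 35.9.

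**Figure D1:**
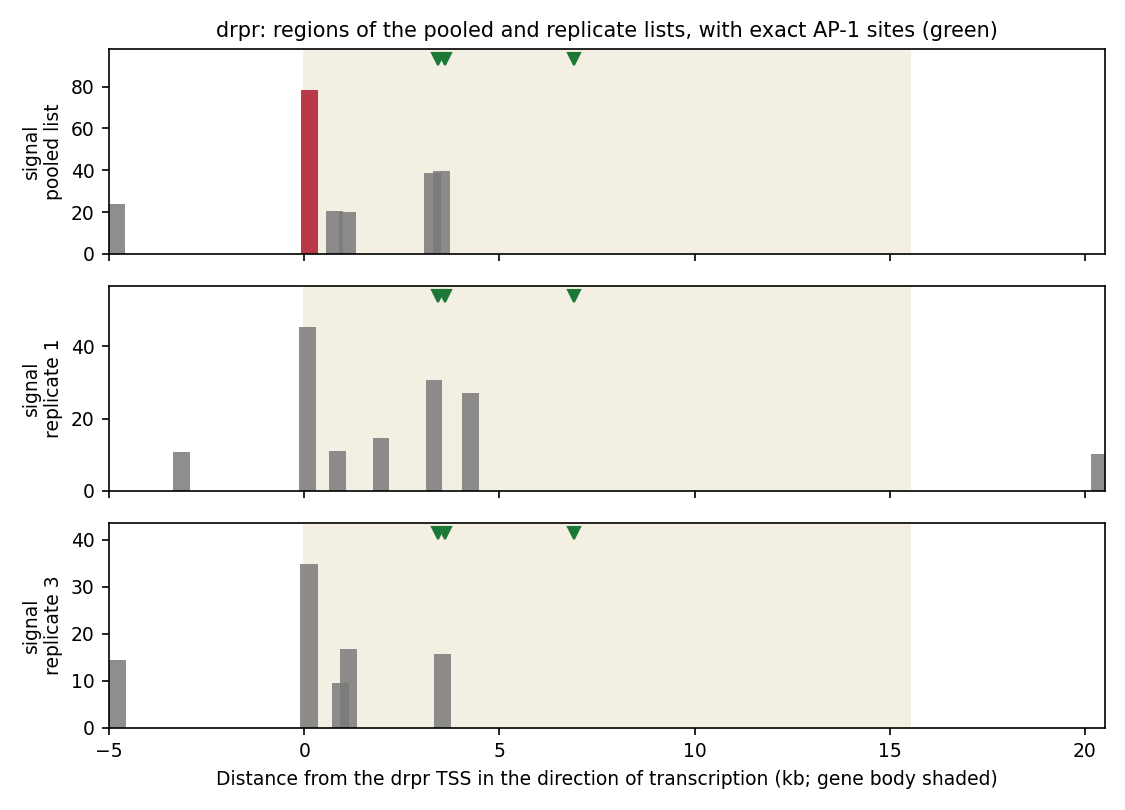
Regions in and around drpr in the pooled list and in the lists of replicates 1 and 3, plotted as signal against distance from the TSS (kb, positive in the direction of transcription), with the IDR peak in red, other regions grey, the gene body shaded and exact AP-1 sites as green triangles. The region at the start site is the highest in each list (78.3, 45.4 and 34.8), and the intronic regions near the pair of AP-1 sites are lower (39.4, 30.7 and 15.7).

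Further into drpr, the large intron held weaker regions that did not enter the IDR list. A pair of overlapping pooled regions had summits 3524 and 3295 bp downstream of the TSS, with signals of 39.4 (rank 9084) and 38.5 (rank 9351). They overlapped a region of signal 30.7 in replicate 1 (rank 5986) and of 15.7 in replicate 3 (rank 14240). Both AP-1 sites of the printed intron lay inside the stronger pooled region, 79 and 108 bp from its summit. The site nearer to the TSS was inside regions of both replicates, and the other was inside a region of replicate 3 alone. The remaining site of the gene, at chr3L:1724196-1724202 in a non-coding exon, lay in no region of any list. The remaining pooled regions of the drpr window were weaker, with signals of 20.2, 20.5 and 23.7. The last of these lay 4809 bp upstream, beside the start of the neighbour Oseg4. Replicate 1 also listed a region of signal 27.1 in the intron, 4261 bp from the TSS, that had no pooled counterpart.

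**Figure D2:**
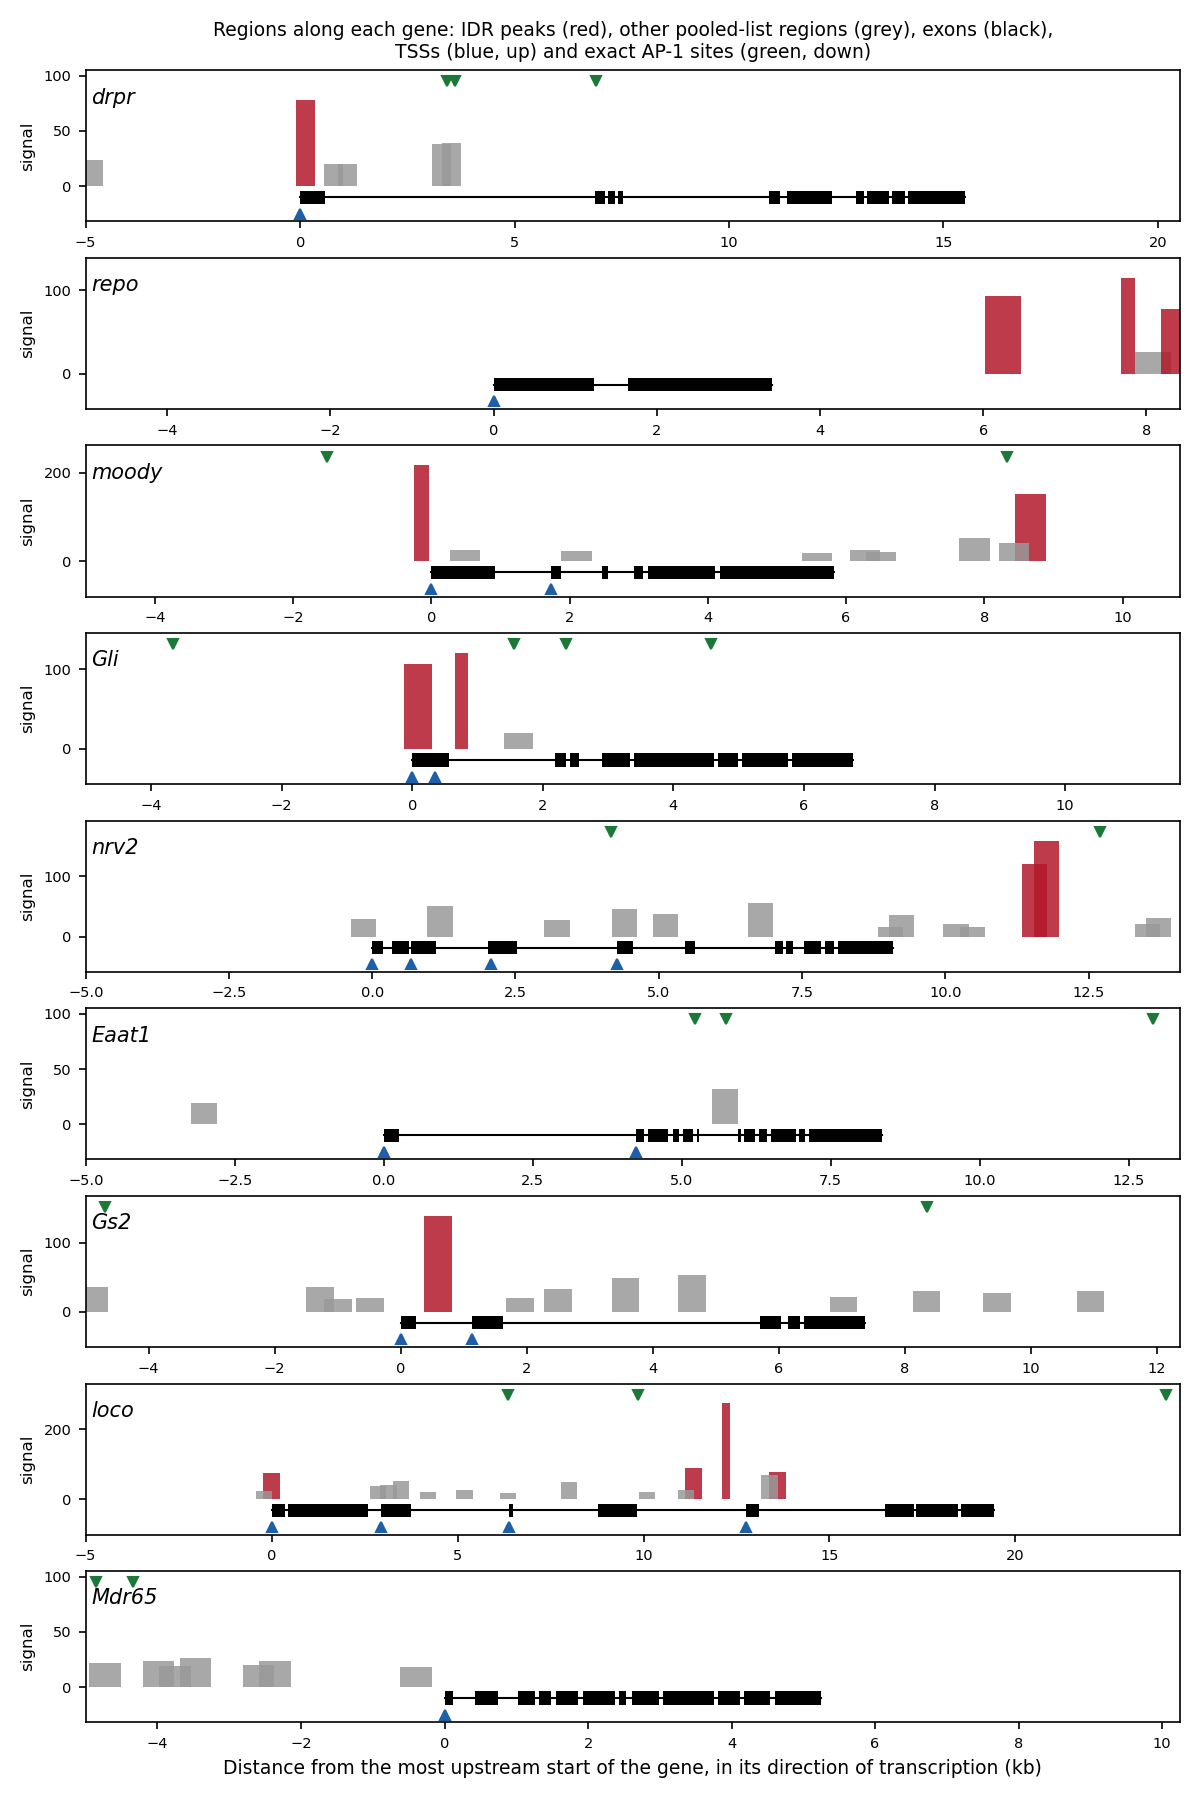
Maps of the 9 genes with signal of pooled-list regions against distance from the most upstream start (kb), where red bars are IDR peaks, grey bars other pooled regions, black boxes exons, blue triangles TSSs and green triangles exact AP-1 sites. The IDR peaks of drpr, moody, Gli, Gs2 and loco include a peak near a start of the gene, those of repo and nrv2 lie past the gene end, and no green triangle stands over a red bar.

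The glial identity gene repo held no region in its own body in the pooled list or in either replicate list. The homeodomain factor Repo is made in all glia but those of the midline and drives their differentiation. The gene (FBgn0011701, chr3R:18236192-18239602, plus strand) was counted only through 3 IDR peaks past its end, which lay 2832, 4376 and 4993 bp away. The first was 97 bp upstream of a TSS of 14-3-3epsilon, which encodes an adaptor of Ras signalling, and the others were in an intron of that gene. Their signals were 92.9, 115 and 77.7 in the pooled list. Signals in replicate 1 were 66.1, 59.8 and 44.0, and in replicate 3 they were 35.6, 56.2 and 46.3. The 66.1 belongs to an overlapping region whose summit was 199 bp away, 76 bp upstream of a TSS of CG7156. The replicate 1 region at the 14-3-3epsilon summit itself had a signal of 55.1 (rank 2284), and that of replicate 3 ranked 3858. The pooled list also held no summit upstream of repo, and the repo window was the only one of the 9 with no exact AP-1 site. Replicate 1 alone listed a region upstream, of signal 20.2 and 4591 bp from the TSS.

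Among the barrier genes, moody and loco held the strongest peaks. Moody is a G protein-coupled receptor of subperineurial glia. At the moody gene (FBgn0025631, chrX:2044292-2050120, minus strand) a narrow peak of 218 bp had its summit 147 bp upstream of the TSS, within an intron of CG4313. Its signal was 217 in the pooled list (rank 380), 138 in replicate 1 (rank 307) and 85.7 in replicate 3 (rank 566). A second peak lay 2838 bp past the end of moody, with signals of 152 in the pooled list, 112 in replicate 1 and 44.5 in replicate 3. That summit was in introns of Actn and usp and 142 bp upstream of a TSS of usp, which encodes the partner of the ecdysone receptor. It ranked 527 in replicate 1 and 2436 in replicate 3.

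Loco is an RGS protein that limits G protein signalling downstream of Moody. The loco gene (FBgn0020278, chr3R:22619968-22639387, minus strand) is the longest of the set, at 19420 bp with 4 annotated TSSs, and held 4 IDR peaks. The strongest, 224 bp wide and printed above, lay in an intron 526 bp upstream of an internal TSS. It had a signal of 274 in the pooled list (rank 196), 159 in replicate 1 (rank 208) and 112 in replicate 3 (rank 263). This was the highest signal at any of the 9 genes in all 3 lists. A peak of pooled signal 90.8 lay 1411 bp upstream of the same TSS, with signals of 63.1 in replicate 1 (rank 1789) and 25.6 in replicate 3 (rank 6802). The other peaks of loco lay 851 bp downstream of this same internal TSS (78.3) and 4 bp upstream of the first start of the gene (75.9). Their signals were 40.4 and 40.1 in replicate 1, and 36.0 and 35.7 in replicate 3. Both were thus close to the lower edge of the IDR list. A region of pooled signal 69.8 (rank 3875), 632 bp downstream of the same start as the peak of 78.3, lay just below that edge.

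Gliotactin, the product of Gli, sits where the corners of 3 cells meet in septate junctions of glia and epithelia. At Gli (FBgn0001987, chr2L:15756002-15762758, minus strand) both peaks were at the start of the gene. The peak of higher signal, 206 bp wide, lay in an intron 367 bp downstream of a TSS, with signals of 121 in the pooled list, 72.0 in replicate 1 and 53.8 in replicate 3. The other lay 91 bp downstream of the first TSS in a non-coding exon, with signals of 106, 72.0 and 48.8 in the same lists. Both ranked within the first 2010 regions of each list. The only other pooled region of the window had a signal of 20.2.

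Mdr65 encodes an ABC transporter that exports drugs and toxins at the barrier. At this gene (FBgn0004513, chr3L:6240500-6245746, minus strand) no IDR peak was listed. The pooled list held 7 regions, all upstream and within the neighbour Best2, with signals from 18.2 to 26.4. The strongest, 3468 bp upstream, had a signal of 17.4 in replicate 1 and 8.87 in replicate 3. The nearest IDR summit was 11072 bp from the gene, 153 bp from a start of Best2, with a signal of 190. No summit of the pooled list or of either replicate list lay in the body of Mdr65.

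**Figure D3:**
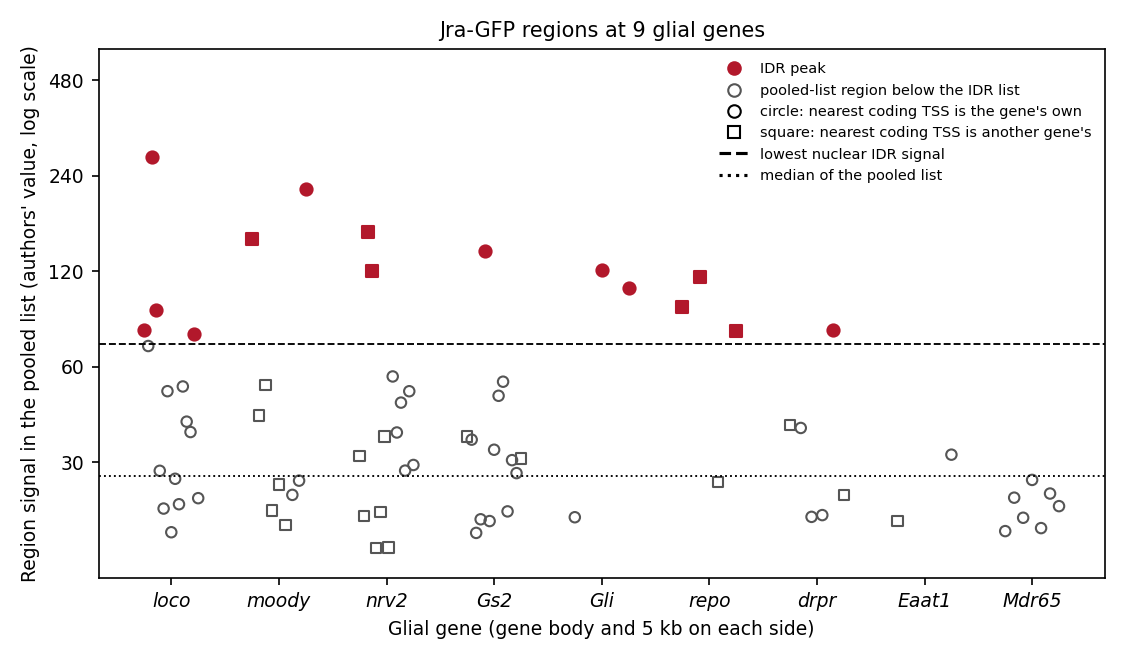
Signal of every pooled-list region at each of the 9 genes (log axis), with IDR peaks filled and other regions open, circles where the nearest coding TSS is the gene's own and squares where it is not, and lines at the lowest IDR signal (dashed, 70.6) and the median of the pooled list (dotted, 27.3). The highest regions of loco, moody and nrv2 are at 274, 217 and 160, and those of Eaat1 and Mdr65 at 31.7 and 26.4.

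Of the genes for transport and metabolism, Gs2 alone held an IDR peak of its own. Gs2 encodes glutamine synthetase, with which glia convert glutamate taken up at synapses. The peak at Gs2 (FBgn0001145, chrX:11422832-11430197, plus strand) lay in an intron, 530 bp upstream of the second TSS. Its signal was 139 in the pooled list (rank 1066), 70.7 in replicate 1 (rank 1458) and 68.6 in replicate 3 (rank 987). A further 12 pooled regions lay in the Gs2 window, with signals up to 53.9. At the region 982 bp past the gene end, in a non-coding exon of Evi5, the AP-1 site printed above lay 11 bp from the summit. That region had a signal of 30.5 in the pooled list, 24.0 in replicate 1 and 12.1 in replicate 3.

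The gene nrv2 encodes a beta subunit of the Na+/K+ ATPase that is also part of septate junctions. At nrv2 (FBgn0015777, chr2L:6789770-6798862, minus strand) the overlapping IDR peaks lay 2678 and 2463 bp past the gene end. They were 231 and 446 bp upstream of the TSS of nrv1, which encodes a related subunit. Their signals were 160 and 121 in the pooled list. In replicate 1 separate regions had summits within 100 bp of them, with a signal of 93.5 (rank 811) at the stronger peak and 30.7 (rank 6001) at the weaker. In replicate 3 a single region of signal 87.0 (rank 551) overlapped both, with its summit 220 bp from that of the stronger peak and 5 bp from that of the weaker. In the gene or just upstream of it, 7 pooled regions had lower signals, from 16.2 to 56.0. The region 149 bp upstream of the first start had a signal of 29.5.

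Eaat1 encodes the glial glutamate transporter. At this gene (FBgn0026439, chr2L:9333567-9341925, plus strand) no IDR peak was listed, and the nearest summit was 46305 bp away, at a start of Aldh (signal 111). The pooled list held 2 regions. The region of higher signal lay in an intron 1491 bp downstream of a TSS and had signals of 31.7 in the pooled list (rank 12176), 17.9 in replicate 1 and 13.9 in replicate 3. The Eaat1 AP-1 site printed above lay 18 bp from its summit and inside the regions of both replicates. The other region, 3016 bp upstream and near the start of Cks30A, had a signal of 19.6 and was matched by 12.5 in replicate 3 and by none in replicate 1.

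Set against the whole genome, 7 of the 9 glial genes (77.8%) had an IDR peak in the window, and 41.4% of all protein-coding genes did. The glial genes are long, with a median of 7366 bp, against 2166 bp for all coding genes. Among the 3751 coding genes within the glial genes' range of length, 50.4% had an IDR peak. At least 2 IDR peaks lay at 5 of the 9 (repo, moody, Gli, nrv2 and loco), against 19.8% of all coding genes. All peaks of repo and nrv2, and a peak at moody, were nearest to the start of another gene. A summit within 1000 bp of a start of its own lay at 5 of the 9 (drpr, moody, loco, Gli and Gs2), against 20.4%. Neither of these shares was computed for genes of like length. The median of the strongest pooled signal was 121 over the 9 genes, 52.2 over all coding genes with none counted as 0, and 71.5 over those of like length. With 9 genes, each gene moves a share by a large step, and these counts are descriptions with no test.

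By position, 7 of the 15 IDR summits lay in the body of the glial gene, 2 upstream and 6 downstream. The glial gene had the nearest protein-coding TSS for 9 of the 15. For the other 6, which include every peak counted for repo and nrv2, that TSS belonged to 14-3-3epsilon, usp or nrv1. By signal, the 15 peaks were spread over the list, with ranks from 196 to 3330. Their median signal was 115, against 104 for all nuclear IDR peaks, and 9 of them were among the 1901 of higher signal.

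All 15 peaks overlapped a region in each replicate list, as did 3765 of all 3803 nuclear IDR peaks. A summit within 100 bp in both replicates was found for 13 of the 15. That count and those below have no share of all IDR peaks beside them. By the strongest overlapping region, 13 of them were among the 3827 highest regions of replicate 1, and 11 among those of replicate 3. Of the 15, 10 were so in both, 3 in replicate 1 alone (drpr and a peak each at repo and loco), 1 in replicate 3 alone and 1 in neither. The last pair were the weakest peaks of loco, of which that 851 bp inside a start passed in replicate 3 alone (36.0 there and 40.4 in replicate 1) and that at the first start passed in neither (35.7 and 40.1). When a replicate region had to cover at least 0.5 of the peak, the weaker nrv2 peak was no longer among the highest of replicate 1, which left 12 there and 9 in both.

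**Figure D4:**
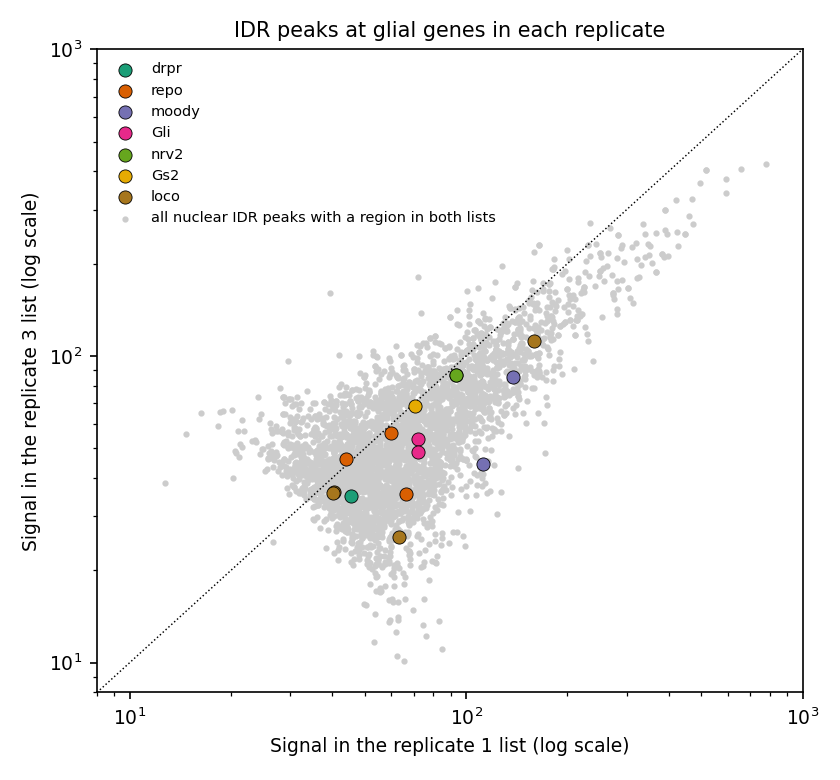
Signal of IDR peaks in replicate 1 against replicate 3 (both log axes), with the 15 peaks at glial genes coloured by gene over the 3765 nuclear peaks that had a region in both lists (grey) and a dotted line of equal signal. The strongest loco peak (159 and 112) is at the upper right, the peak beside usp (112 and 44.5) lies on the side of replicate 1, and the pair at nrv2 overlie each other because the same replicate regions were assigned to both.

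No peak at a glial gene held an exact AP-1 site. Of the 15 summits, 0 had TGACTCA or TGAGTCA within 50 bp on either strand, against 4.08% of all 3803, and 0 of the 15 regions held it anywhere, against 8.60%. By the rule of 3, 0 of 15 allows a share of up to 20.0%. That rule takes the peaks as independent, though the nrv2 pair overlap. Both backgrounds lie under 20.0%, so 15 peaks are too few to place either count below its background. With 1 mismatch allowed in the 6 outer bases, 6 of the 15 held the site within 50 bp, against 19.5% of all IDR peaks. Of the other sequences searched, the DRE lay at the first loco start (1 of 15, against 3.23%). TTCNNNGAA, the form read by STAT factors, lay in the loco peak of signal 90.8 (1 of 15, against 3.0%). TGACGTCA, GAGAGAG and the Gcm sequence ATGCGGG were at none of the 15, against 0.421%, 3.34% and 0.631%.

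Exact AP-1 sites near the glial genes lay instead in weaker regions or in none. The 9 windows held 21 sites at 8 genes, 11 of them inside the gene. None was inside an IDR region, against 2.92% of the 11142 exact sites on the chromosome arms. With so small a share, 21 sites are too few to place that count below it. Inside a pooled region were 9 (42.9%), against 18.2% of the 9472 sites in all coding-gene windows. The pooled list covered 16.1% of the glial windows and 9.89% of all coding-gene windows. Counted by region, 9 of the 58 pooled regions below the IDR list at glial genes held a site, against 6.32% of the 26167 such regions in the genome. These 9 are not separate loci, because the overlapping pair in the drpr intron both hold the site at chr3L:1727688-1727694. The 58 had support that varied, with 38 overlapping a region of both replicates, 10 of replicate 1 alone and 10 of replicate 3 alone. Of the 21 sites, 3 lay inside regions of both replicates, which were those of drpr, Eaat1 and Gs2. At loco, the site 4 bp from a summit lay 13 bp upstream of an internal start, in a pooled region of signal 18.1 that had a counterpart of 21.4 in replicate 1 and none in replicate 3. A further 8 sites lay in no region of the pooled or replicate lists. The counts of 3 and 8 sites have no share over all coding-gene windows beside them.

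Other genes of the same processes were read with the same window. Of 15 genes of engulfment and the injury response, 9 had an IDR peak (41.4% of all coding genes did) and 5 had a summit within 1000 bp of a start (20.4% of all). The highest signals were at Mmp1, a matrix metalloproteinase gene that glia induce after axon injury (309, 188 bp from its start), and at Shark, the kinase gene downstream of Draper (195, nearest to the start of mrj). Then came ced-6, which encodes the adaptor of Draper (178, 201 bp from its start), and Pi3K92E, a lipid kinase gene (132, 647 bp from its start). The ced-6 peak was the only one on this list with an exact AP-1 site within 50 bp. The strongest overlapping region had a signal of 77.2 in replicate 1 and 92.3 in replicate 3. The same values were assigned to a neighbouring IDR peak, so they may belong to either peak. Crk, Ced-12, Rac1, Stat92E, NimB4 and NimC4 had no IDR peak.

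Of 10 genes of glial fate, 5 had an IDR peak, against 41.4% of all coding genes, and 1 had it within 1000 bp of a start, against 20.4%. The highest signals were at zfh1 (153, in an intron of its own), gcm2 (153, 32 bp from the start of GlcAT-S), hth (90.4) and ttk (89.0). The master gene of glial fate, gcm, had none. Of 19 genes of septate junctions and the barrier, 11 had an IDR peak (57.9%, against 41.4% of all coding genes and 50.4% within the length range of the 9 glial genes) and 7 a summit near a start, against 20.4%. The list was led by the scaffold gene vari (308, nearest to CG9328), bou (239, at the start of ogre), nrv1 (160, the peak also counted for nrv2) and Cont (148, nearest to Sfxn1-3). AP-1 sites lay at a peak of Lac, which encodes a cell adhesion protein (75.1, 1094 bp from its start), and at a peak of crim (87.0, 36 bp from its start). The other genes of the list with an IDR peak were Tsf2 (131, nearest to nst), Nrg (116, nearest to IntS4), and bark (106), Galphai (83.1) and cora (81.2), each nearest to its own start. Nrx-IV, sinu, Mcr, kune, pck, crok, cold and Galphao had none.

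Of 18 genes of glial transport, metabolism and surface, 9 had an IDR peak, against 41.4% of all coding genes and 50.4% within that length range. A summit near a start lay at 5 of the 18, against 20.4% of all coding genes. The highest were at the innexin gene ogre (239, 283 bp from its start), the pyruvate kinase gene PyK (233, nearest to CG7071), Ldh (190, nearest to Best2) and the innexin gene Inx2 (154, nearest to Inx7). Of the other transporter genes, chk, for a monocarboxylate transporter, had an IDR peak (99.0, nearest to CG45092), and Tret1-1, Glut1, Gat and Eaat2 had none. Together the 4 glial lists gave 34 of 62 genes with an IDR peak (54.8%), against 41.4% of all coding genes and 50.4% of those within the length range of the 9 glial genes. The peak at the start of ogre was counted for both ogre and bou. These lists hold long genes, with median lengths from 5761 to 21868.5 bp. The highest median, that of glial fate, is above the longest of the 9 genes (19420 bp), so the length range does not match every list. A summit within 1000 bp of a start lay at 18 of the 62 (29.0%), against 20.4% of all coding genes. For 16 of these 34 the strongest peak had the listed gene's own start as the nearest one.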

How the data were processed

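Jra-GFP ChIP-seq of whole larvae was read from 4 region lists on dm6 (IDR, pooled, replicates 1 and 3). Per the deposited text files, each replicate list came from the alignments of that replicate and another file, the pooled list from both replicates, and the IDR list from these. The sources used here do not name the aligner, the peak caller or the IDR threshold. The signal of each region is the authors' own value, as deposited, and was used to rank and describe regions within a list. Gene models were Ensembl release 115 and sequence was RefSeq Release 6. No region ended beyond its chromosome.

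Summits were assigned to genes within 5 kb of either end, so a region can count for several genes. A replicate's signal at a peak is the highest of any region that overlaps it by at least 1 bp, which can be the region of a neighbouring peak. Overlap of at least 0.5 of the peak, and summits within 100 bp, were tried instead. Promoter means within 1000 bp of a TSS. Both strands were searched for motifs up to 50 bp from each summit. The text names all 9 genes, their IDR peaks or otherwise their strongest pooled region, genes that hold a summit or the nearest TSS, and of each further list the 4 highest and any with an AP-1 site. Other genes of the lists were named after their values were seen. The members and lists were chosen with earlier results of these data known. With 1 group, no test was made. Window width, promoter width, motif width, signal threshold and replicate were varied. Python 3.11.15, pandas 2.3.3, numpy 2.4.6 and matplotlib 3.10.9 were used, and the window and motif counts were checked on simulated data.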

Additional observations from a re-analysis of the deposited data

How the results depend on the processing

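The assignment of peaks to glial genes depended on the window. The share of all coding genes with an IDR peak was computed for the 5 kb window and the full IDR list alone. Counts of genes at the other settings below, for the 9 and for the further lists, therefore have no share to be set against. With no flank, 4 of the 9 genes and 7 peaks were counted, and with flanks of 1000 or 2000 bp 9 peaks at 5 genes, without repo and nrv2. With 10000 bp there were 16 peaks at 7 genes. By nearest TSS 9 peaks remained at 5 genes, again without repo and nrv2. Among the 1901 IDR peaks of higher signal 9 peaks remained at 6 genes, without drpr. Taking the 3827 highest regions of a single replicate gave 6 to 7 genes and 11 to 13 peaks, and drpr was lost when replicate 3 alone was used. Summits within 100 bp in both replicates were found for 13 of the 15 peaks. Promoter peaks numbered 8 within 1000 bp, 5 within 500 bp and 4 within 250 bp. Peaks with an AP-1 site numbered 0 within 25, 50 and 100 bp, and 6 with 1 mismatch. In the further lists, the 1901 peaks of higher signal left 2 genes of glial fate, 7 of septate junctions and 4 of transport. With no flank, septate junctions had 5, transport 3, neuronal markers 3 and muscle markers 2. With 1000 bp, neuronal and muscle markers had 3 each. No paired analysis was possible because there was 1 group and no test. Read depth is unknown, so no interval covers a signal.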

Other observations

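Markers of other larval tissues were read with the same window. Of 14 neuronal marker genes, 5 had an IDR peak and 2 had a summit near a start, against 41.4% and 20.4% of all coding genes. The highest signals were at Gad1 (278, nearest to wit), elav (189, 590 bp from its start), Syx1A (170, nearest to eIF4EHP) and ChAT (108). Of 14 muscle marker genes, 5 had an IDR peak and 2 a summit near a start, against the same shares of all coding genes. This list was led by Strn-Mlck (644, nearest to CG8320), Mef2 (387, nearest to Pdrg1), Msp300 (352, at its own start) and Mlp84B (264, nearest to Alh). An exact AP-1 site lay at a peak of Syx1A (77.3, 602 bp from its start) and at a peak counted for Mlc2 (76.1, 162 bp from the start of Rsod). The share with an IDR peak was 35.7% on each list, against 41.4% of all coding genes, and these marker genes are long, with medians of 25614 bp for neuronal and 11904 bp for muscle markers.

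At glial genes, 14 of the 15 IDR peaks had a higher signal in replicate 1 than in replicate 3, against 71.6% of the 3765 nuclear peaks with a region in both lists. With an overlap of at least 0.5 of the peak required, 13 of the 15 did. The scales are separate, and the median ratio of replicate 1 to replicate 3 was 1.30 at glial genes and 1.23 at all. The base composition of the 101 bp at the summits was close to that of all IDR peaks, with a median of 36.6% G and C, against 37.6%. Of the 15, 4 were narrow, from 176 to 224 bp wide (a peak each at repo, moody, Gli and loco), and 16.6% of all IDR peaks were under 300 bp.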
